A study of Drosophila melanogaster with 14 samples.

Results

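The genes prospero (pros), SoxNeuro (SoxN) and couch potato (cpo) were examined, 3 of the 7624 genes in the deposited expression table, and were taken by name. RNA came from ML-DmBG3-c2 (BG3) cells, a Drosophila melanogaster line from larval central nervous system that was grown in medium with serum and insulin. The 14 libraries of total RNA depleted of ribosomal RNA fall into 6 from Mock-treated cells and, after RNA interference with double-stranded RNA, 3 labelled Ph, 3 labelled Sce and 2 labelled Pc, named after the subunit of Polycomb Repressive Complex 1 (PRC1) that was targeted. All groups are the same line without any added allele, and the labels do not say that replicates were separate cultures.

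Prospero is a homeodomain transcription factor. Dividing neural stem cells (neuroblasts) pass it to their smaller daughter, the ganglion mother cell, where it turns down stem cell and cell cycle genes and turns on differentiation genes. SoxNeuro is a SoxB factor with an HMG box that acts earlier, in the neuroectoderm, where it works beside the related factor Dichaete in forming neuroblasts. Couch potato is an RNA-binding protein of the nervous system, known from sensory organ precursors and their progeny. PRC1 keeps many developmental regulators silent in cells that do not use them.

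Each value is the authors' mean signal of a group, on a common total, and beside it stand a ratio to Mock and the p-value and q-value that the authors attached. "Rose" and "fell" are used where that q-value was under 0.05. The table holds 0 columns of single libraries, so no spread stands beside a mean, the depth of the libraries is unknown, and differences between labelled groups could not be tested. The labels and header do not tell whether the signal was divided by gene length. Levels are therefore compared mainly within a gene. Exceptions are cut-offs on mean level, genes called high or abundant in Mock, and sums over marker lists, and these carry that limit. RNA of the targeted genes stood higher, not lower, in their own groups, where the authors' deposited table has a ratio to Mock of 8.64 for ph-p, 8.09 for ph-d, 27.0 for Sce and 21.5 for Pc. These values do not show the labelled depletion, and reads of the double-stranded RNA itself may be among them, which was not tested; each group is named by its label. The neuronal marker elav was present in every group, at 17293 in Mock and between 16273 and 21194 in the labelled groups, while 12 of 16 neuron markers were not among the listed genes.

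All 3 genes rose in the groups labelled Ph and Pc, and in the group labelled Sce each stood above Mock without passing. Among all genes 3.52% rose with Ph, 0.236% with Sce and 3.04% with Pc. These shares depend on the starting level. Every gene in the table reaches a mean of at least 798.3 in some group. Of the 363 genes whose Mock mean lies under that value, 23.7% rose with Ph and 21.5% with Pc, against 2.51% and 2.12% of the 7261 others. SoxN and cpo belong to the former and pros to the latter. SoxN reaches the value in 1 group, that labelled Ph, so its presence in the table already required a difference from Mock there.

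**Figure D1:**
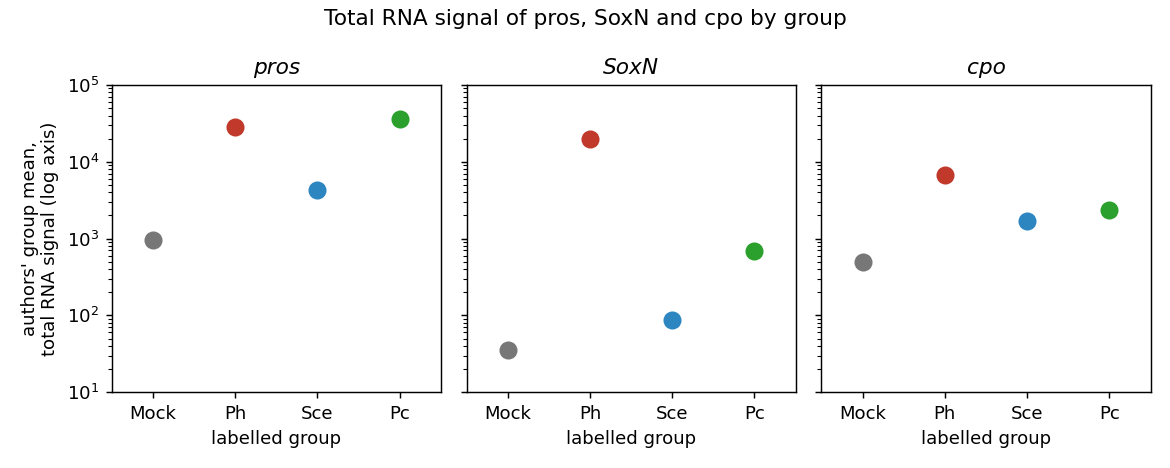
The authors' group mean of total RNA signal (vertical log axis, no unit given in the file) is plotted for each gene against the labelled group, with 1 point per group and no error bar because single libraries were not used. Mock is lowest in each panel, Ph is highest for SoxN (19970) and cpo (6732), and Pc is highest for pros (35847).

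For pros the authors' means were 970.1 in Mock, 28436 with Ph, 4343 with Sce and 35847 with Pc. The groups labelled Ph and Pc lay close together and far above Mock, with Sce between. In the authors' deposited table the ratio to Mock was 29.3 with Ph (p = 0.001, q = 0.023) and 37.0 with Pc (p and q both 0.000 at 3 decimals). With Sce the ratio was 4.48 (p = 0.032, q = 0.246) in the authors' deposited table and did not pass. The quotient of the Pc mean over the Ph mean was 1.26, and that of Ph over Sce was 6.55. Counted from the highest, the ratio of pros was number 40 of 7624 with Pc, 90 with Ph and 74 with Sce.

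For SoxN the authors' means were 34.98 in Mock, 19970 with Ph, 88.17 with Sce and 687.7 with Pc. A single group, Ph, was high, and Mock and Sce were both near the bottom of the scale. In the authors' deposited table the ratios were 571 with Ph (p = 0.002, q = 0.041), 19.7 with Pc (p = 0.002, q = 0.038) and 2.52 with Sce (p = 0.101, q = 0.291). Neither call held when the rounded p-values of the authors' deposited table were put through a Benjamini-Hochberg adjustment, which gave 0.058 with Ph and 0.061 with Pc; pros and cpo passed it in both comparisons. By that rule 2.51% of all genes rose with Ph, 0.328% with Sce and 2.58% with Pc. The low Mock mean makes the size of these ratios uncertain: a pseudocount of 100 in place of 1 moved the log2 ratio from 9.12 to 7.22 with Ph and from 4.26 to 2.54 with Pc. The Ph mean was 29-fold the Pc mean and 226-fold the Sce mean.

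For cpo the authors' means were 488.5 in Mock, 6732 with Ph, 1697 with Sce and 2340 with Pc. All labelled groups stood above Mock, and those labelled Sce and Pc lay nearer to one another than either did to Ph. The authors' deposited table gives ratios of 13.8 with Ph (p = 0.000 at 3 decimals, q = 0.001), 4.79 with Pc (p = 0.001, q = 0.035) and 3.47 with Sce (p = 0.008, q = 0.198). The Ph mean was 2.88-fold the Pc mean, and the Pc mean was 1.38-fold the Sce mean. Thus the order of the groups was Ph, Pc, Sce and Mock for SoxN and cpo, and Pc, Ph, Sce and Mock for pros. Which neighbours in these orders differ beyond the spread of the libraries cannot be told from means. A higher signal in more cells and more RNA per cell cannot be told apart in such bulk samples.

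The table also holds a second measurement, marked nt.gene, with ratios to Mock for Ph and Sce but not for Pc. What it measures is stated in neither header nor labels, and its libraries are not among the 14 labelled ones, so its ratios are given here as deposited and without means. In it 1.69% of all genes rose with Ph and 0.0656%, or 5 genes, with Sce. By the Benjamini-Hochberg rule, on the same rounded p-values, the shares were 1.55% and 0.144%. Of the 363 genes with a total RNA Mock mean under 798.3, cpo and SoxN among them, 7.16% rose here with Ph and 0.551% with Sce. cpo was the member that rose, and it did so in both comparisons. Its nt.gene ratios in the authors' deposited table were 27.1 with Ph (p = 0.001, q = 0.032) and 4.97 with Sce (p and q both 0.000 at 3 decimals). With Sce, cpo therefore passed in the nt.gene columns and not in total RNA; whether the measurements differ was not tested.

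The other members did not pass in the nt.gene columns. For pros the nt.gene ratio in the authors' deposited table was 3.26 with Ph (p = 0.058, q = 0.214) and 0.988 with Sce (p = 0.962, q = 0.812), so that Sce was level with Mock. For SoxN the nt.gene ratio with Ph in the authors' deposited table was 157 (p = 0.036, q = 0.173), number 3 of 7624 from the highest, and with Sce it was 1.34 (q = 0.740). The ratio in total RNA divided by that in nt.gene with Ph was 8.98 for pros, 3.63 for SoxN and 0.509 for cpo. Other genes overlap pros in RefSeq, namely the kinase genes KP78a and KP78b, which the Ensembl annotation puts on the opposite strand. No source here tells whether reads were counted by strand. KP78a is not among the listed genes. KP78b had total RNA ratios in the authors' deposited table of 1.68 with Ph (q = 0.087) and 1.61 with Pc (q = 0.145), and its nt.gene ratio with Ph was 1.82 (q = 0.244). The part of either gene in the values of pros was not tested.

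**Figure D2:**
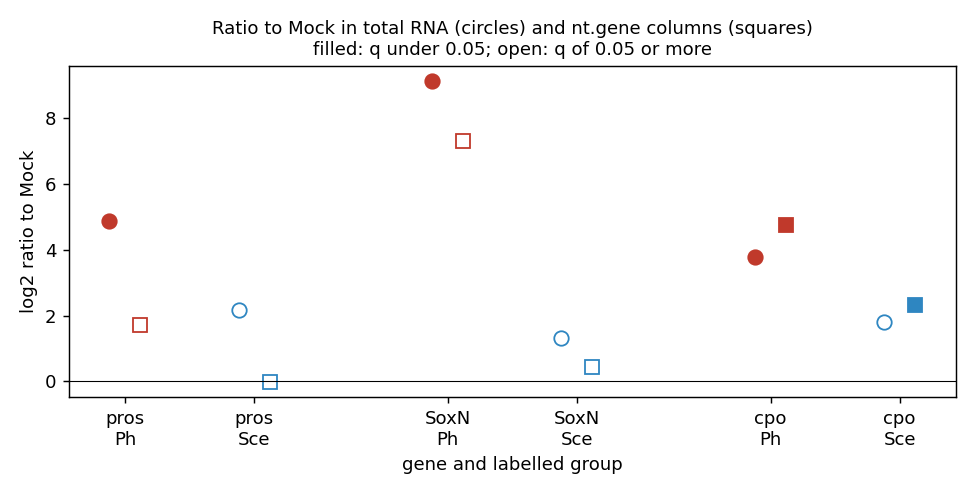
The log2 ratio to Mock (vertical axis, with a pseudocount of 1 for total RNA and none for nt.gene) is shown for each gene with Ph and Sce, in total RNA as circles and in the nt.gene columns as squares, filled where the authors' q-value was under 0.05. For pros and SoxN the square lies under the circle (1.71 against 4.87 for pros with Ph), and for cpo it lies above (4.76 against 3.78 with Ph).

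Other genes of neural precursors were taken as a list of 32, of which 11 were in the table. Of these, 5 rose with Ph and 5 with Pc, 0 rose with Sce and 0 fell in any of the 3 comparisons in the authors' deposited table. The genes that rose with Ph were pros, SoxN, nub, klu and chinmo, and the same names passed with Pc, a comparison that shares the Mock libraries. Over all 7624 genes the median log2 ratio was 0.07 with Ph, 0.06 with Sce and 0.05 with Pc. The median of the list is not set beside these, because SoxN, nub, klu and chinmo are listed through a high labelled group. With Sce, 2 genes of the list had an unadjusted p under 0.05 in the authors' deposited table, and 0 passed the Benjamini-Hochberg adjustment. The 7 members whose Mock mean alone reaches 798.3 hold 1 gene that rose, pros, with Ph and likewise with Pc. Over all genes with such a Mock mean, 2.51% rose with Ph and 2.12% with Pc. The remaining 4 genes of the list that rose are listed because a labelled group is high.

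nub encodes a POU homeodomain factor (Pdm1) that marks a window of neuroblast age. Its Mock mean of 1.40 is the lowest value of that column, and the authors' means were 5254 with Ph, 59.88 with Sce and 716.1 with Pc, so no fold is given. Like SoxN, it was high with Ph and much lower with Pc. chinmo, a BTB zinc finger gene of early-born neurons, had authors' means of 71.01 in Mock, 27161 with Ph, 253 with Sce and 2031 with Pc. Its ratios in the authors' deposited table were 382 with Ph (q = 0.011) and 28.6 with Pc (q = 0.013), and in the nt.gene columns it rose 123-fold with Ph (q = 0.000 at 3 decimals). klu, a zinc finger gene that maintains neuroblast identity, had authors' means of 191.5 in Mock, 1811 with Ph, 2133 with Sce and 7027 with Pc. Its order resembled that of pros in that Pc was highest. In the authors' deposited table the ratios of klu were 9.45 with Ph (q = 0.030), 36.7 with Pc (q = 0.000 at 3 decimals) and 11.1 with Sce (q = 0.155), and its nt.gene ratio with Sce was 6.47 (q = 0.000 at 3 decimals).

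Several genes with a high Mock mean did not pass. Ratios with Ph in the authors' deposited table were 1.41 for Imp and 1.08 for Syp (listed as CG17838), RNA-binding proteins whose levels change with neuroblast age, and 1.19 for the differentiation factor brat, with q-values of 0.234 or more. insc, which orients the neuroblast spindle, had a ratio of 6.99 with Ph (p = 0.153, q = 0.264) and 3.08 with Pc (q = 0.092) in the authors' deposited table.

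**Figure D3:**
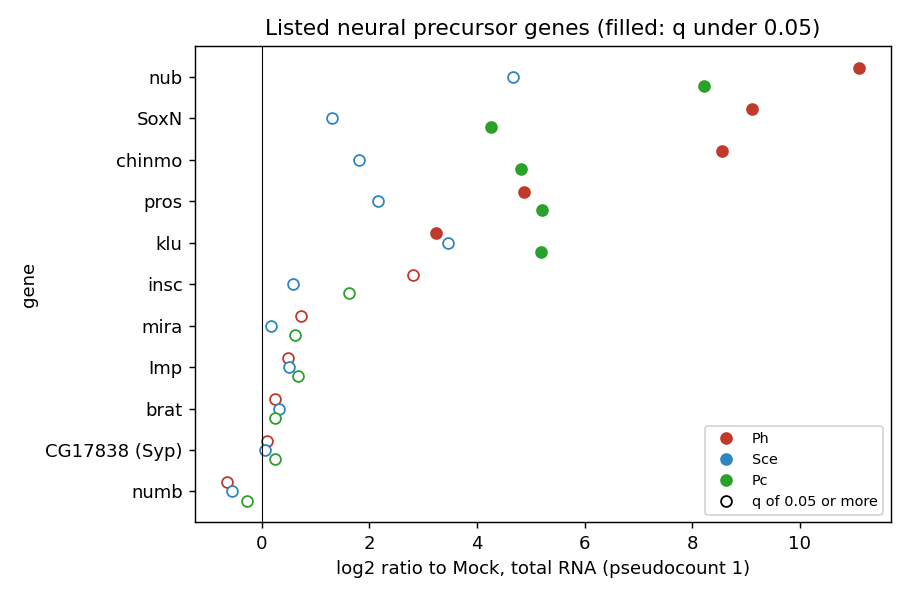
The 11 listed neural precursor genes (vertical axis) are placed by their log2 ratio to Mock in total RNA (horizontal axis, pseudocount 1) with Ph, Sce and Pc, filled where the authors' q-value was under 0.05. The filled points belong to nub, SoxN, chinmo, pros and klu, none of them with Sce; the position of nub depends on the pseudocount because Mock is at the column's minimum.

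Among relatives and partners of SoxN, the SOX family list of 8 genes had 4 in the table. With Ph, SoxN and Sox102F rose, with Pc SoxN alone, and with Sce 0 passed, with 1 at an unadjusted p under 0.05 and 0 after Benjamini-Hochberg adjustment of the authors' deposited table. Sox102F, a SoxD gene, had authors' means of 112.3 in Mock and 1596 with Ph, a ratio of 14.2 (q = 0.046) in the authors' deposited table. After Benjamini-Hochberg adjustment SoxN and Sox102F no longer passed with Ph (0.058 and 0.075). Sox14 and Sox100B were already present in Mock, at 23968 and 15484, and across the labelled groups the authors' deposited table has ratios from 1.04 to 1.97 for them, with q-values of 0.187 or more. Of 6 genes that pattern the neuroectoderm in columns or act with SoxN there, 3 were listed. Dr, the homeobox gene of the dorsal column, went from an authors' mean of 87.46 in Mock to 4019 with Ph (q = 0.049 in the authors' deposited table) and 3824 with Pc (q = 0.117 in the authors' deposited table); its Benjamini-Hochberg value with Ph was 0.075. Egfr, the receptor gene that also acts in this patterning, had a ratio of 1.80 with Ph (q = 0.218) in the authors' deposited table. SoxN, Sox102F and Dr have Mock means under 798.3 and are listed because a labelled group is high, so the medians of these lists are not given. The genes whose Mock mean alone reaches that value are Sox14, Sox100B and Egfr, and none of the 3 rose with Ph, Sce or Pc.

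The proteins that sort Prospero into the ganglion mother cell were nearly all expressed in Mock. All 17 genes of this list were in the table, each with a Mock mean above 798.3. With Ph 2 rose, with Sce 1 and with Pc 2, and 0 fell, in the authors' deposited table. Among all genes whose Mock mean reaches 798.3, 2.51% rose with Ph, 0.179% with Sce and 2.12% with Pc. The median log2 ratios of the list were 0.42, 0.19 and 0.24 with Ph, Sce and Pc. aPKC, the kinase that drives basal sorting, rose in all 3 comparisons: in the authors' deposited table its ratio was 2.59 with Ph (q = 0.002), 1.60 with Sce (q = 0.018) and 4.82 with Pc (q = 0.008). cno, the afadin scaffold gene, rose 3.08-fold with Ph (q = 0.025) in the authors' deposited table. baz, the Par-3 gene, rose 1.68-fold with Pc (q = 0.023) in the authors' deposited table and stood at 1.62 with Ph (q = 0.070). mira, whose product carries Prospero, had authors' means of 1562 in Mock and between 1773 and 2603 in the labelled groups, with q-values of 0.280 or more in the authors' deposited table.

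Cell cycle genes known as targets of Prospero gave 0 calls out of 7 in any of the total RNA comparisons of the authors' deposited table. At an unadjusted p under 0.05 the counts there were 0 with Ph, 2 with Sce and 0 with Pc, and 0 passed the Benjamini-Hochberg adjustment. Their median log2 ratios were 0.05 with Ph, 0.27 with Sce and 0.03 with Pc, beside 0.07, 0.06 and 0.05 over all genes. CycB, the cyclin gene of mitosis, had ratios in the authors' deposited table of 1.24 with Ph, 1.46 with Sce and 1.36 with Pc. In the nt.gene columns all 7 stood under Mock with Ph, with a median log2 ratio of -0.57, and 0 of them passed in the authors' deposited table. There 3 of the 7 were lower with Ph at an unadjusted p under 0.05, and 2 with Sce, where the median was 0.01; 0 passed the Benjamini-Hochberg adjustment in either.

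Of 21 RNA-binding protein genes of neural cells, cpo among them, 19 were listed. With Ph 3 rose, with Pc 1, with Sce 0, and 0 fell. Of the 14 whose Mock mean alone reaches 798.3, 1 rose with Ph, shep, and 0 with Pc or Sce. The shares over all genes with such a Mock mean were 2.51% with Ph, 2.12% with Pc and 0.179% with Sce. cpo and Rbp6 have Mock means of 488.5 and 422.7 and are listed because a labelled group is high. With Sce 3 stood higher at an unadjusted p under 0.05 in the authors' deposited table, and 0 passed the Benjamini-Hochberg adjustment. The median log2 ratios over all 19, which include genes listed because a labelled group is high, were 0.34, 0.25 and 0.15 with Ph, Pc and Sce. Besides cpo, those that rose with Ph in the authors' deposited table were Rbp6, a Musashi relative, with a ratio of 6.90 (q = 0.037), and shep, with a ratio of 1.80 (q = 0.026). The Benjamini-Hochberg value of Rbp6 was 0.058. cpo was the member that passed with Pc and in the nt.gene columns. pum, a translational repressor gene abundant in Mock at 292102, had a ratio of 0.761 with Ph (q = 0.313) in the authors' deposited table.

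**Figure D4:**
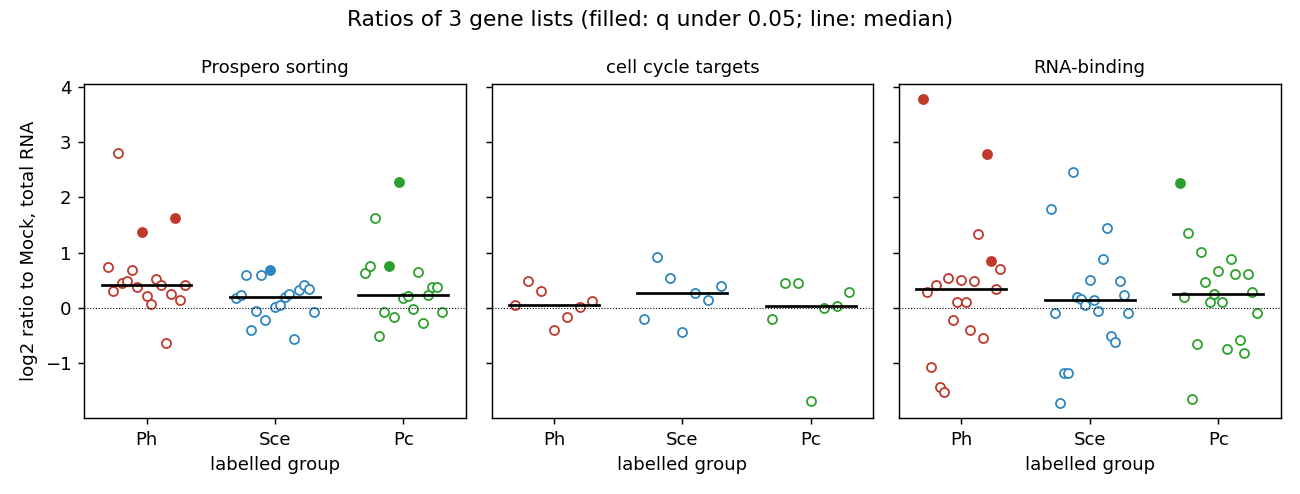
Log2 ratios to Mock in total RNA (vertical axis, pseudocount 1) are shown for every listed gene of 3 lists, by labelled group, filled where the authors' q-value was under 0.05, with a line at the list's median. The medians lie between 0.03 and 0.42, and the highest filled point with Ph is cpo (3.78), which is listed because a labelled group is high.

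The genes whose pattern over the 4 groups lay nearest to each member differed from member to member. Nearness was the Euclidean distance between log2 means after each gene was centred on its own average. Only genes at or above the 25th percentile of mean level were ranked, without those known by a CG or CR number. For pros the nearest were Ndae1, an anion exchanger gene (distance 0.76), the paired-box gene Poxm (1.08), the RNA-binding protein gene fus (1.14) and hoe1 (1.28). Ndae1 had authors' means of 1612 in Mock, 28437 with Ph, 4175 with Sce and 29650 with Pc, with Ph and Pc high, Sce between and Mock lowest, as for pros. Its ratio with Ph in the authors' deposited table was 17.6 (q = 0.062), lower than the 29.3 of pros, and did not pass, while with Pc it passed (18.4, q = 0.003). In the nt.gene columns, which did not enter the distance, the ratio of Ndae1 with Ph was 73.6 (q = 0.073) in the authors' deposited table, beside 3.26 for pros.

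For SoxN the nearest of the ranked genes were Picot (1.57), ltl (1.60), ome (2.68) and the glial gene axo (2.76). Genes under the floor of mean level may lie nearer. One that was not ranked is chinmo, with authors' means of 71.01 in Mock, 27161 with Ph, 253 with Sce and 2031 with Pc. Whether SoxN has fewer close neighbours than pros can therefore not be told from this ranking. Picot, a phosphate cotransporter gene, had authors' means of 19.46 in Mock, 34503 with Ph, 131.6 with Sce and 1704 with Pc. For cpo the nearest were the zinc finger homeobox gene zfh2 (0.68), the glycan-processing enzyme gene Mgat2 (0.75), insc (0.91) and the Dpp antagonist gene Dad (0.91). zfh2 also rose in the nt.gene columns of the authors' deposited table, 48.5-fold with Ph (q = 0.012) and 11.3-fold with Sce (q = 0.000 at 3 decimals). Among the members themselves the distances were 2.27 between pros and cpo, 4.26 between pros and SoxN and 4.58 between SoxN and cpo.

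**Figure D5:**
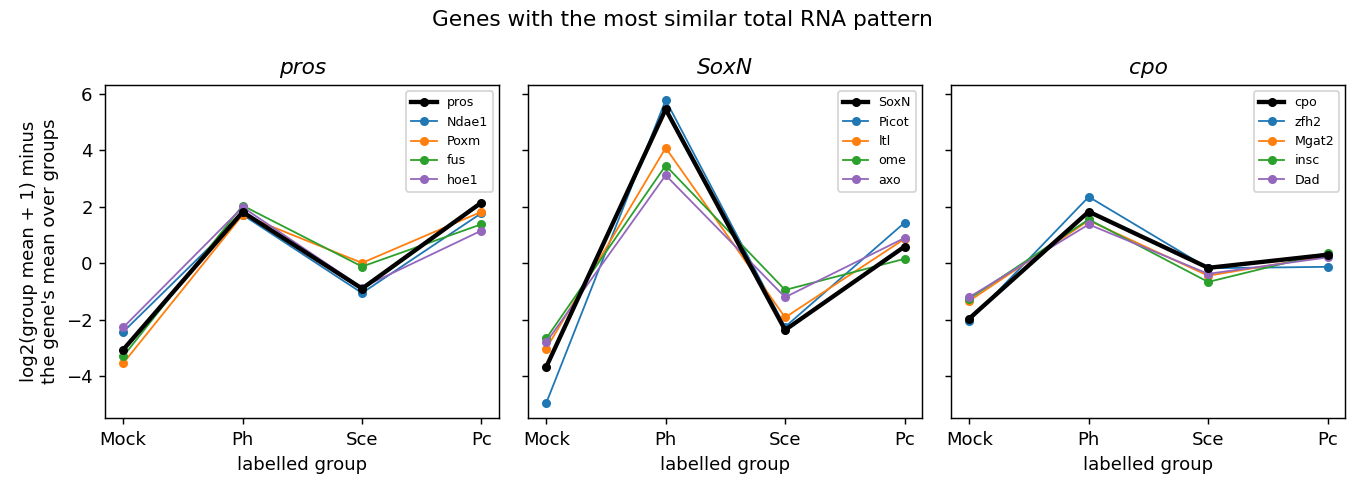
For each member (black) and its 4 nearest ranked genes (colours), log2(group mean + 1) minus the gene's own average is plotted against the labelled group. The lines join groups of 1 gene and show no order. Profiles near pros are high with Ph and Pc, those near SoxN peak with Ph, and those near cpo are lowest in Mock with the highest value under Ph.

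Among the listed markers of glia, neurons, muscle and hemocytes, a minority passed with Ph or Pc, and none with Sce. Of 15 glial markers 12 were listed, each with a Mock mean that reaches 798.3. Of these, 4 rose and 1 fell with Ph, 3 rose with Pc and 0 passed with Sce. Among all genes whose Mock mean reaches that value, 2.51% rose with Ph, 0.179% with Sce and 2.12% with Pc. The share of all genes that fell was not counted. After Benjamini-Hochberg adjustment the rise of axo and the fall of wun2 with Ph did not pass (0.058 for both). With Sce, 0 stood higher and 1 lower at an unadjusted p under 0.05 in the authors' deposited table, and 0 passed the Benjamini-Hochberg adjustment. Among the 12 the ratio was above 1 for 7 genes with Ph, 7 with Sce and 9 with Pc, and the median log2 ratio was 0.33, 0.14 and 0.49. repo, the defining glial factor, had authors' means of 2567 in Mock, 138658 with Ph, 6081 with Sce and 13815 with Pc, which places the groups in the order seen for SoxN and cpo. Of the 4 listed neuron markers Ace rose, with Ph, from an authors' mean of 61.37 in Mock to 1391. It is listed only because the group labelled Ph is high. Of the 3 neuron markers whose Mock mean reaches 798.3, 0 rose. The median log2 ratios over all 4, Ace included, were 0.29 with Ph, -0.33 with Sce and 0.02 with Pc.

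Of 10 muscle markers 5 were listed, and twi rose with Ph, from an authors' mean of 236.2 in Mock to 7107. It is listed only because a labelled group is high, and 0 of the 3 muscle markers whose Mock mean reaches 798.3 rose. sls went from 15469 to 113251 with Ph without passing (q = 0.090 in the authors' deposited table), and Act87E had a ratio of 0.509 (q = 0.253) there. Of 12 hemocyte markers 8 were listed, and vkg, a collagen gene, rose with Pc, 2.55-fold (q = 0.038) in the authors' deposited table. Cg25C, the partner collagen gene, stood 2.16-fold above Mock with Pc (q = 0.075) in the authors' deposited table. With Pc the ratio was above 1 for 5 of the 8 listed hemocyte markers and under 1 for 3. Those above Mock included Hml, lz and eater, with log2 ratios of 3.9, 1.8 and 0.82. Those under Mock were srp, Pxn and crq, with log2 ratios of -0.51, -0.88 and -0.19. Apart from vkg, none passed. Of the 8, 6 have a Mock mean that reaches 798.3, and 1 of these, vkg, rose with Pc. Over all genes with such a Mock mean, 2.12% rose with Pc. The rest of the 8 are listed because a labelled group is high, so the split of 5 and 3 may depend on them.

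Sums of the authors' means over a list follow the genes of largest signal. The listed glial markers summed to 494518 in Mock, 829030 with Ph, 476533 with Sce and 627313 with Pc, and the 4 neuron markers to between 27501 and 35406. Muscle markers summed to 65829 in Mock, 180387 with Ph, 64553 with Sce and 72633 with Pc, and sls and Mef2 made up at least 84.6% of each sum. Hemocyte markers summed to 3129273 in Mock, 2256334 with Ph, 4656194 with Sce and 6887752 with Pc, and Cg25C and vkg made up at least 91.2% of each. No listed marker was at 0. The part of these cell types in the values of pros, SoxN and cpo was not tested.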

How the data were processed

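The members and gene lists were chosen with earlier results of these data known. Per the file headers, the deposited table gives the authors' mean signal of each group, a ratio to Mock for each treatment, and the authors' p-values and q-values to 3 decimals. bedtools is named in the submitters' processing notes with no role; neither they nor the labels state the aligner, build, annotation, normalization or test. Tests planned for single libraries were replaced by the planned fallback: a call is a deposited q-value under 0.05, and levels were not tested again. Deposited total RNA ratios matched the quotient of the group means (0 exceptions beyond 2% and 0.001). Log2 ratios in total RNA used a pseudocount of 1; those in nt.gene came from the deposited ratio. The 3 columns of nt.gene means, which belong to no labelled sample, were left out. Benjamini-Hochberg values were computed from the authors' p-values over all 7624 genes. This step was tested on simulated p-values, and the distance ranking on the group means with a planted near-copy of pros (Python 3.11.15, pandas 2.3.3, numpy 2.4.6).

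Named by rule were the members, the called genes of each list with up to 3 others of highest mean, and the 4 nearest genes per member among those at or above the 25th percentile of mean level, without genes known by a CG or CR number. Not every gene that this rule takes is printed. mira, Pxn, crq, Hml, lz, eater, KP78a, KP78b and the other neighbours were named after their values were seen. Symbols were matched by name, Syp by its CG number. Some genes stand in more than 1 list (mira, insc, brat, numb, Imp, Syp and loco). The promoter motif search was not done here.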

Additional observations from a re-analysis of the deposited data

How the results depend on the processing

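With a pseudocount of 0 or 100, or after centring on the median of all genes, the log2 ratios of pros, SoxN and cpo in total RNA kept their direction in all 3 comparisons; the range for pros was 4.74 to 4.87 with Ph and 5.07 to 5.21 with Pc, and for SoxN 7.22 to 9.16 with Ph. Benjamini-Hochberg adjustment of the authors' rounded p-values, applied to single members after the data were seen, ended the calls of SoxN with Ph (0.058) and with Pc (0.061). It left the calls of pros (0.036 with Ph) and cpo (0.037 with Pc, and 0.047 with Ph in the nt.gene columns) in place. With p-values of 3 decimals, whether such values lie under or over 0.05 may depend on the rounding. The number of neural precursor genes that rose stayed within 1.5 times under that adjustment (4 with Ph and 4 with Pc) and under a q-value of 0.1. With genes under the median mean level left out it was 0 with Ph and 0 with Pc, because pros, SoxN, nub, klu and chinmo all have a mean over the 4 groups under that median. Leaving out a replicate was not run, since the table holds group means. No paired analysis was possible because the columns are group means that carry no replicate number. The depth of each library is unknown, and low Mock means such as that of SoxN limit the precision of its ratios.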

Other observations

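Genes next to the members in RefSeq's order, looked at after the data were seen, did not pass with Ph or Pc in total RNA. Beside pros lie CG5214 and CG17734 on the near side and the mitochondrial ribosomal protein gene mRpL40 and the prefoldin gene mgr on the far side. Their ratios with Ph in the authors' deposited table were 0.940, 1.04, 1.16 and 0.809, and with Pc 0.810, 0.996, 1.30 and 1.06, with q-values of 0.385 or more. For cpo, CG7785 was the listed gene among the 2 nearest on each side, with a ratio of 0.730 with Ph and 0.913 with Pc in the authors' deposited table (q = 0.344 and q = 0.628). None of the 2 nearest protein-coding genes on each side of SoxN was among the listed genes.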
